A study of Mus musculus with 12 samples.

Results

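The receptors through which macrophages sense myeloid growth factors and inflammatory cytokines were examined in large peritoneal macrophages (LPMs) of the mouse. The group was defined by name as the genes Csf1r, Csf2ra, Csf2rb, Csf2rb2, Csf3r, Il10ra, Il6ra, Ifngr1, Ifnar1 and Tnfrsf1b. All 10 were found, each as 1 row, among the 57010 genes of the count table, and all 10 passed the filter on low counts, as did 15943 genes in all. LPMs are the resident macrophages of the peritoneal cavity and were sorted here as F4/80-high, MHCII-low cells from female mice. Wild-type mice (WT naive) and Tim4 knockout mice (Tim4KO naive) gave the unchallenged groups. The other two groups (WT ID8 and Tim4KO ID8) came from mice of the same genotypes that had received ID8ZGO cells intraperitoneally at 8 weeks of age, 24 h before the cells were taken. ID8 is a mouse ovarian tumour line, and ID8ZGO carries ZsGreen and ovalbumin. From these mice only ZsGreen+ LPMs were kept, so the challenge and the choice of cells that had acquired tumour material cannot be told apart. Each of the 4 groups held 3 libraries of bulk RNA. The age of the naive mice and whether each library came from a separate animal are not given in the sources used here, so the p-values measure the spread between these libraries.

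Macrophage growth factors act through surface receptors of a few families. Csf1r is a receptor tyrosine kinase for Csf1 and Il34 and is needed for the survival of most tissue macrophages. The other growth factor and cytokine receptors described here have no kinase of their own: Csf2ra and the shared beta chain Csf2rb bind Csf2 (GM-CSF), Csf3r binds Csf3 (G-CSF), and these together with Il10ra, Il6ra, Ifngr1 and Ifnar1 signal through Jak kinases and Stat factors after pairing with a second chain or with themselves. Tnfrsf1b is the inducible receptor for Tnf, lacks a death domain and works through Traf adaptors.

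Library totals ran from 7358559 to 23170244 counts. Levels are given in CPM, counts scaled by library size and by the trimmed mean of M values (TMM). Timd4, the gene of Tim4, lay at 882 to 1489 CPM in the 6 WT libraries, at 7.21 to 7.71 CPM in Tim4KO naive and at 1.38 to 1.92 CPM in Tim4KO ID8, so no library went against its genotype label. Which exons the knockout allele lacks is not given in the sources used here. Of the LPM markers, 3 were present in every library at 2569 to 6299 CPM (Adgre1, F4/80), 120.2 to 194 CPM (Gata6) and 617 to 1485 CPM (Icam2). The whole list of 8 LPM markers summed to 50787 to 58120 CPM in naive but 21889 to 26549 CPM in ID8 libraries. By edgeR's test, 3 of the 8 were called higher and 2 lower after challenge in WT cells. In Tim4KO cells 2 were called higher and 2 lower. Prg4 had lower means after challenge, at 2405 against 3651 CPM (WT) and 2613 against 3886 CPM (Tim4KO). Lyz2, another gene of that list, lay at 40527 to 47486 CPM in naive and at 10729 to 14990 CPM in ID8 libraries. Marker sums of cells that the gate should leave out were lower after challenge for some lists only. They were 9.46 to 25.1 CPM in naive and 3.52 to 9.44 CPM in ID8 libraries for B cells, narrowly without overlap. For epithelial or tumour cells they were 6.61 to 27.6 and 1.60 to 6.83 CPM, with overlap, and the 27.6 CPM was that of WT naive 1. For T and NK cells they were 4.26 to 8.34 and 4.21 to 10.3 CPM. Markers of small peritoneal macrophages, monocytes and dendritic cells summed higher, to 326 to 603 CPM in naive and 124 to 425 CPM in ID8 libraries, where WT ID8 3 had the 425 CPM and the other WT ID8 libraries 124 and 141 CPM. WT ID8 3 stood apart: its counts differed from those of WT ID8 1 and 2 with a chi-square of 46.5 and 78.6 per degree of freedom, against 5.04 to 21.6 for the other replicate pairs. This chi-square was taken on raw counts, where it also grows with depth. WT ID8 3 was the deepest library, at 23170244 counts, so depth and other differences cannot be told apart in it. Reads in 1946 olfactory and vomeronasal receptor genes, taken as background, summed to 267 to 836 CPM in naive and 6.25 to 362 CPM in ID8 libraries, and their lowest value was that of WT ID8 3.

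Compared per kilobase of exonic length, Csf1r was the most abundant of the 10 receptors in every group. WT naive libraries had 186 ± 33.7 CPM per kb of it and Tim4KO naive libraries 220.2 ± 13.4, while WT ID8 libraries had 158 ± 12.4 and Tim4KO ID8 libraries 179.8 ± 5.38 (SD, n = 3). In WT naive cells it was followed by Ifngr1 at 83.1 ± 6.64 CPM per kb and Csf2ra at 80.3 ± 4.46 CPM per kb, whose libraries overlapped. Csf3r at 56.7 ± 9.28 and Tnfrsf1b at 39.0 ± 4.46 CPM per kb came next, each separated from its neighbours. Il10ra, Csf2rb, Ifnar1 and Il6ra (27.1 ± 6.24, 20.0 ± 4.84, 15.97 ± 1.58 and 14.5 ± 1.18 CPM per kb) formed a run in which every neighbour overlapped the next, and Csf2rb2 was lowest at 6.59 ± 1.99 CPM per kb.

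The order in WT ID8 cells differed at the top and in the middle. Csf2ra stood second at 125 ± 12.9 CPM per kb and no longer overlapped Ifngr1, which followed at 51.5 ± 4.40 CPM per kb. Csf3r, at 20.0 ± 3.17 CPM per kb, lay within the run of overlapping neighbours from Tnfrsf1b (35.0 ± 4.50) through Csf2rb (23.4 ± 6.37) and Il10ra (17.8 ± 2.95) to Ifnar1 (16.8 ± 4.85). Il6ra at 9.89 ± 1.44 and Csf2rb2 at 7.83 ± 1.06 CPM per kb overlapped at the bottom. Tim4KO cells had the same first 3 receptors in the same order as WT cells, both naive (Csf1r, Ifngr1, Csf2ra) and after challenge (Csf1r, Csf2ra, Ifngr1).

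**Figure D1:**
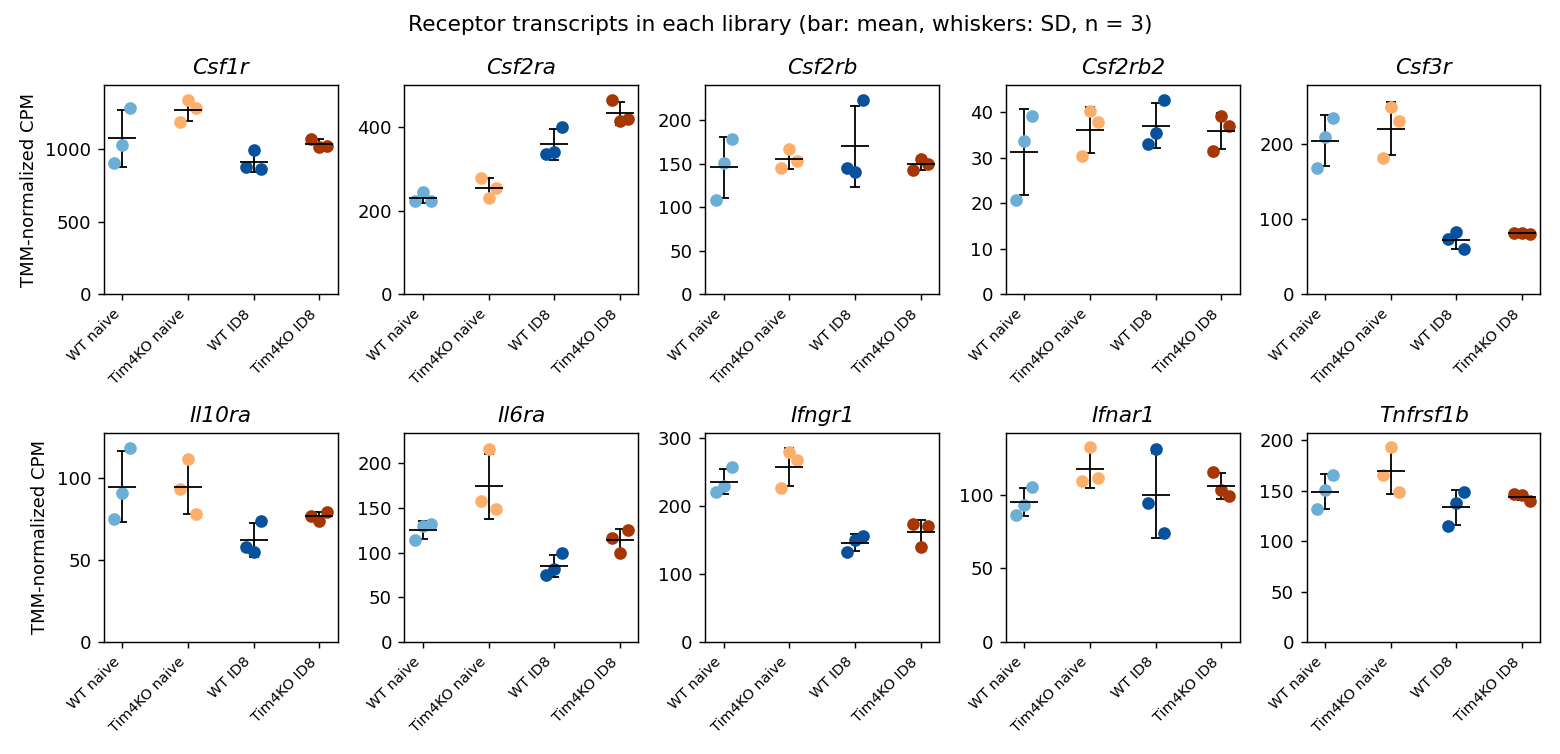
Each panel shows 1 receptor, with its level in CPM (linear axis from 0) in the 3 libraries of each group as points, the mean as a bar and the SD as whiskers. Csf2ra is higher and Csf3r and Ifngr1 are lower in the 6 ID8 libraries than in the 6 naive libraries, and Csf2rb and Csf2rb2 overlap between all groups.

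The challenge comparison asked how the receptors differed between LPMs that had acquired ID8 material and naive LPMs of the same genotype. In WT cells Csf2ra rose, and Csf3r, Ifngr1, Il10ra and Il6ra fell. In Tim4KO cells Csf2ra rose again, and Csf3r, Ifngr1 and Il6ra fell. By edgeR's quasi-likelihood test with Benjamini-Hochberg adjustment over all tested genes, 5 of 10 receptors were called in WT cells (1 higher, 4 lower), where 31.8% of all tested genes were called (19.5% higher, 12.3% lower). In Tim4KO cells 4 of 10 were called (1 higher, 3 lower), against 16.6% of all tested genes (11.5% higher, 5.06% lower). The median log2 fold change of the 10 receptors was -0.20 in WT and -0.26 in Tim4KO cells, beside -0.04 and -0.05 over all tested genes. The ID8 and naive libraries did not overlap for 1 receptor that was higher and 4 that were lower in WT cells, where 23.3% and 21% of tested genes had these orders. In Tim4KO cells 1 receptor was higher and 5 were lower without overlap, against 23.7% and 18.1% of tested genes. These are bulk samples, so fewer cells that express a gene and less RNA of it per cell cannot be told apart.

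The scaling of the libraries moved the balance of higher and lower calls. Of all called genes 61.3% were higher in WT and 69.5% in Tim4KO cells, and with upper-quartile factors in place of TMM these shares were 33.9% and 48.7%, with the median log2 fold change of all genes at -0.28 and -0.17. Under that scaling Csf1r and Tnfrsf1b were also called lower in WT cells, making 7 of 10, and Csf1r in Tim4KO cells, making 5 of 10. Without WT ID8 3, and with the background reads as a covariate, the receptors called were the same 5 and the same 4. The count in WT cells dropped to 3 of 10 without WT naive 3, WT ID8 1 or WT ID8 2, where the calls of Il6ra and Il10ra were lost, and the count in Tim4KO cells to 2 of 10 without Tim4KO ID8 2, where those of Il6ra and Ifngr1 were lost.

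**Figure D2:**
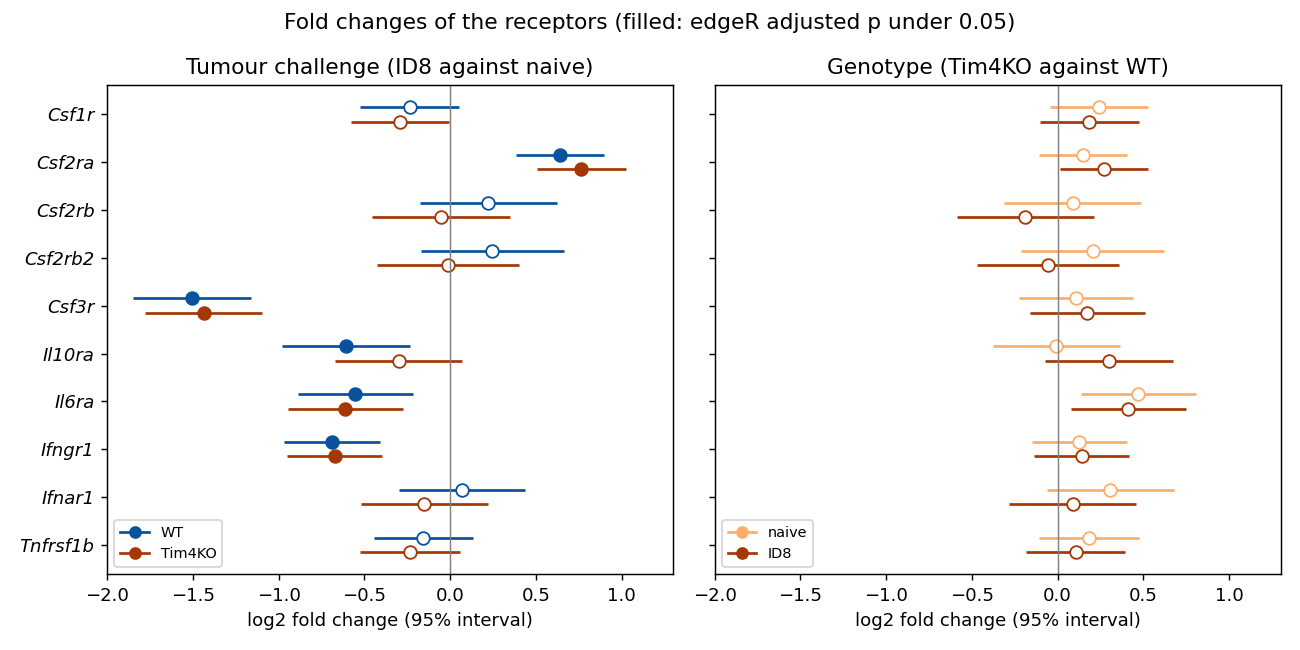
Log2 fold changes of the 10 receptors with 95% intervals, for ID8 against naive (left, by genotype) and for Tim4KO against WT (right, by condition); filled points have an edgeR adjusted p under 0.05. On the left Csf2ra is above 0 and Csf3r, Il6ra and Ifngr1 are below 0 in both genotypes and Il10ra in WT only, with Csf1r and Tnfrsf1b also called lower in WT and Csf1r in Tim4KO cells under upper-quartile scaling; on the right no point is filled.

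Csf2ra encodes the alpha chain that gives the GM-CSF receptor its specificity. It lay at 223, 245 and 223 CPM in WT naive libraries, against 335, 340.1 and 402 CPM in WT ID8 libraries. Tim4KO values were 279.6, 232 and 254 CPM in naive and 465, 415 and 420.3 CPM in ID8 libraries. Every ID8 library was above every naive library of either genotype. The log2 fold change was 0.64 (SE 0.12, edgeR adjusted p = 0.00128) in WT cells, a 1.56-fold rise. It was 0.77 (SE 0.12, edgeR adjusted p = 0.000759) in Tim4KO cells, a 1.70-fold rise. The call held in every alternative fit and without any single library, and without WT ID8 3 the WT value was 0.57.

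The sequence upstream of Csf2ra is shown because this was the only receptor of the 10 to rise, and because Spi1, Cebpa and Runx1, which encode factors known to act on promoters of myeloid receptors, were among the genes that changed. It was taken from RefSeq (GRCm38.p6), runs 5′ to 3′ on the gene's strand and ends at the base before the annotated start. Capitals mark every match, on either strand, of 3 short motifs: the PU.1 core GAGGAA, the C/EBP core TTNNGNAA and the RUNX core TGTGGT.
Csf2ra upstream, chr19:61228419-61228668, minus strand: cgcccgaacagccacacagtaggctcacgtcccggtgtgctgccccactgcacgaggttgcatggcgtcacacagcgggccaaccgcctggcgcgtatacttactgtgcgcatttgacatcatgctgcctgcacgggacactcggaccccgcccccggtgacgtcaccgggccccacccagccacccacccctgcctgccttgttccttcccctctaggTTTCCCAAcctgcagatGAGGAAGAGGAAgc
The window held 2 PU.1 cores, back to back near its end, and 1 C/EBP core, read on the opposite strand, and 0 RUNX cores. Of 32851 promoters in the table, cut to the same 250 bases, 23.3% held the PU.1, 36.8% the C/EBP and 14% the RUNX letters. The table held 7 of the 10 receptors, of which 6 had a PU.1 match (Csf2ra, Csf2rb2, Csf3r, Il6ra, Ifnar1 and Tnfrsf1b), 3 a C/EBP match (Csf2ra, Il6ra and Ifnar1) and 0 a RUNX match. A receptor was counted if any of its promoters in the table matched, whereas the shares are of single promoters, so they are not like for like. A match describes the letters only.

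Csf3r, the G-CSF receptor, is best known for its role in neutrophil production. It lay at 169, 209.8 and 235 CPM in WT naive libraries, against 73.3, 82.9 and 60.1 CPM in WT ID8 libraries. Tim4KO naive libraries had 181, 249.5 and 229.9 CPM, and Tim4KO ID8 libraries 81.8, 81.8 and 80.2 CPM. No ID8 library came above 82.9 CPM and no naive library below 169 CPM. The fall was -1.51 on the log2 scale in WT cells (SE 0.16, 95% interval -1.85 to -1.16, edgeR adjusted p = 1.68e-05), or 2.84-fold. The Tim4KO fall was -1.44 (SE 0.16, 95% interval -1.78 to -1.10, edgeR adjusted p = 4.8e-05), or 2.71-fold. This was the largest change among the 10 receptors in both genotypes and was called in every alternative fit, at -1.36 in WT cells without WT ID8 3.

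Neutrophil markers, summed over 11 genes, reached 9.01 to 9.75 CPM in WT naive and 9.45 to 11.7 CPM in Tim4KO naive libraries, and 12.4 to 32.8 and 23.2 to 34.7 CPM in WT and Tim4KO ID8 libraries. S100a8 made up much of the sum, at 4.40 to 7.38 CPM in naive and 9.13 to 24.8 CPM in ID8 libraries. Of the 5 neutrophil markers tested, S100a8, S100a9 and Retnlg were called higher in WT and S100a8 and Retnlg in Tim4KO cells, and 0 were called lower. Other members had lower means in WT ID8 than in WT naive libraries: Mmp8, which did not pass the test, had 0.669 ± 0.494 against 1.64 ± 0.651 CPM, and Elane and Mpo, which did not pass the filter, had 0.0743 ± 0.0692 against 0.498 ± 0.237 and 0.124 ± 0.129 against 0.389 ± 0.279 CPM. Ly6g had 0 to 4 and Camp 1 to 5 reads in any library. Genes of eosinophils and mast cells, 10 in the list, summed to 15.2 to 38.7 CPM in naive and 5.18 to 13.6 CPM in ID8 libraries. By edgeR's test, 4 of the 6 tested genes of that list were called lower in WT and 2 in Tim4KO cells. Of the 11 markers of small peritoneal macrophages, monocytes and dendritic cells, 1 was called higher and 4 lower in WT cells and 0 and 1 in Tim4KO cells. Of the 7 tested B cell markers 5 were called lower in WT and 1 in Tim4KO cells. These counts stand beside 19.5% of all tested genes called higher and 12.3% lower in WT cells, and 11.5% and 5.06% in Tim4KO cells. The part of these lists in the fall of Csf3r was not tested. The upstream window of Csf3r, shown for comparison with that of Csf2ra, which moved the opposite way, held 1 PU.1 core and 0 matches of the other two motifs.
Csf3r upstream, chr4:126024409-126024658, plus strand: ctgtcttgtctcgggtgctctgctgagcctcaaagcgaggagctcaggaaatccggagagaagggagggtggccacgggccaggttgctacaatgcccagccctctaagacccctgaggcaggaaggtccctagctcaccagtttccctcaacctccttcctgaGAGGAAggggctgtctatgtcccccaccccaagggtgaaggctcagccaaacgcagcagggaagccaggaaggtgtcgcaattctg

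Csf1r lay at 904, 1033 and 1287 CPM in WT naive libraries, against 879, 995 and 864 CPM in WT ID8 libraries, which overlapped. Its levels in Tim4KO cells were 1189, 1343 and 1283 CPM naive and 1074, 1017 and 1024 CPM after challenge, which did not overlap. The log2 fold changes were -0.24 in WT cells (SE 0.13, edgeR adjusted p = 0.183) and -0.29 in Tim4KO cells (SE 0.13, edgeR adjusted p = 0.16), and neither passed the threshold. The call depended on the setting. It was made in both genotypes with upper-quartile factors (-0.48 and -0.41) and with a mean count of at least 50 (-0.41 and -0.40), and in Tim4KO cells also with DESeq2 (-0.34) and when only the 2 groups compared were fitted (-0.32). Exons of Hmgxb3 on the opposite strand overlap 15.1% of the exonic length of Csf1r, and since strand use in counting is not given in the sources used here, reads from that overlap cannot be assigned.

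Csf2rb is the beta chain shared by the receptors for GM-CSF, Il3 and Il5, and mice carry a second copy, Csf2rb2, that serves Il3. Their coding sequences are close: over 2631 aligned bases of GENCODE vM21 transcripts 2505 were identical (95.21%). The first 120 coding bases are shown, with the 4 differing bases in capitals, because reads from such stretches bear on how counts fall between the copies.
Csf2rb, coding bases 1 to 120: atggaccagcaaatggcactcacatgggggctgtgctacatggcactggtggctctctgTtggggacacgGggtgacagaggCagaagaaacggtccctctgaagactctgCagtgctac
Csf2rb2, coding bases 1 to 120: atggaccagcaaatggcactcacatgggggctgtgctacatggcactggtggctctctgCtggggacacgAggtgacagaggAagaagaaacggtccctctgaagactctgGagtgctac
Of all 50-base windows of the Csf2rb coding sequence 26% also occurred in Csf2rb2, and 11% of all 100-base windows did. Read length and the handling of reads that map to several places are not given in the sources used here, so the split of counts between these 2 genes is uncertain.

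Csf2rb lay at 108, 151 and 178 CPM in WT naive libraries, against 146, 141 and 224 CPM in WT ID8 libraries. Tim4KO libraries had 145, 168 and 153 CPM naive and 143, 156 and 150.0 CPM after challenge. All groups overlapped, and the high WT ID8 value was that of WT ID8 3, the library that stood apart. The log2 fold change was 0.22 in WT cells (95% interval -0.18 to 0.62, edgeR adjusted p = 0.363) and -0.05 in Tim4KO cells (-0.45 to 0.35, edgeR adjusted p = 0.877); without WT ID8 3 the WT value was -0.01. Csf2rb2, at 20.8, 33.8 and 39.2 CPM in WT naive libraries, against 33.0, 35.6 and 42.8 CPM in WT ID8 libraries, likewise overlapped. Tim4KO libraries of Csf2rb2 had 30.5, 40.2 and 37.96 CPM naive and 31.4, 39.1 and 37.0 CPM after challenge. Its log2 fold changes were 0.25 (-0.17 to 0.66, edgeR adjusted p = 0.333) in WT and -0.01 (-0.43 to 0.40, edgeR adjusted p = 0.971) in Tim4KO cells. With the counts of both copies summed, the values were 0.23 (edgeR adjusted p = 0.349) and -0.05 (edgeR adjusted p = 0.893). In Tim4KO cells the upper bounds, 0.35 and 0.40, lay below the change of Csf2ra (0.77), and in WT cells, at 0.62 and 0.66, they were close to that of Csf2ra (0.64).

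Ifngr1, the ligand-binding chain of the interferon gamma receptor, lay at 222, 230.3 and 258 CPM in WT naive libraries, against 133, 151 and 157 CPM in WT ID8 libraries. The Tim4KO values were 227, 280.3 and 268 CPM naive and 175, 140.4 and 170.4 CPM after challenge. All 6 ID8 libraries lay below all 6 naive libraries. The fall was -0.69 in log2 units in WT cells (SE 0.13, edgeR adjusted p = 0.00132), a 1.61-fold decrease, and was called in every alternative fit. In Tim4KO cells it was -0.67 (SE 0.13, edgeR adjusted p = 0.00297), and the call was lost only without Tim4KO ID8 2, at -0.55 and edgeR adjusted p = 0.0532. The 250 bases upstream of Ifngr1 held no match of the 3 motifs and are shown beside the windows of Csf2ra and Csf3r for that contrast.
Ifngr1 upstream, chr10:19591699-19591948, plus strand: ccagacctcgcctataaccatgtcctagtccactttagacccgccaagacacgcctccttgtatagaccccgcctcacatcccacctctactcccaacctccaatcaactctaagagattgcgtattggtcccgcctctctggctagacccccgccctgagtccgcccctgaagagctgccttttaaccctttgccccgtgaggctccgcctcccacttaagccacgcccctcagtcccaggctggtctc

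Il6ra, the alpha chain that binds Il6 and can be shed from the cell surface, lay at 114, 130.2 and 133 CPM in WT naive libraries, against 75.3, 81.7 and 99.4 CPM in WT ID8 libraries. Tim4KO libraries had 158, 216 and 149 CPM naive and 116, 100.2 and 125 CPM after challenge. The ID8 libraries were below the naive libraries within each genotype, whereas WT naive and Tim4KO ID8 libraries overlapped. The log2 fold change was -0.55 in WT cells (SE 0.16, edgeR adjusted p = 0.0161) and -0.61 in Tim4KO cells (SE 0.16, edgeR adjusted p = 0.0152).

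The Il6ra calls were the least settled of those made in both genotypes. In WT cells the call was lost without WT naive 2 (-0.49, edgeR adjusted p = 0.0668), WT naive 3 (-0.49, 0.0731), WT ID8 1 (-0.40, 0.0895) or WT ID8 2 (-0.49, 0.0707), and with no filter on low counts (-0.44, 0.0571). The Tim4KO call was lost without Tim4KO naive 2 (-0.41, edgeR adjusted p = 0.13), Tim4KO ID8 1 (-0.61, 0.0604) or Tim4KO ID8 2 (-0.50, 0.135). An antisense gene model, Gm42809, overlaps 2.8% of the exonic length of Il6ra. The upstream window of Il6ra is shown because it held the most motif matches of the 4 printed windows along with that of Csf2ra: 1 PU.1 core and 2 C/EBP cores, of which 1 shares its bases with the PU.1 core.
Il6ra upstream, chr3:89913197-89913446, minus strand: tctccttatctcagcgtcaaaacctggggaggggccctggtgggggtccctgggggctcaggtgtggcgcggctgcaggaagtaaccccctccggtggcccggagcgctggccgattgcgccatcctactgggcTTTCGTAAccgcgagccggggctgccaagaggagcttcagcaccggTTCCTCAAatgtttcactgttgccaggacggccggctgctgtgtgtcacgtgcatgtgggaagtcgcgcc

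Il10ra, the ligand-binding chain for the anti-inflammatory cytokine Il10, lay at 75.3, 90.9 and 118 CPM in WT naive libraries, against 57.9, 54.7 and 74.0 CPM in WT ID8 libraries. The groups came within about 1 CPM of each other without overlapping. Tim4KO libraries had 93.7, 112 and 78.5 CPM naive and 76.9, 73.6 and 79.4 CPM after challenge, and these overlapped. The log2 fold change was -0.61 in WT cells (SE 0.17, edgeR adjusted p = 0.0166) and -0.30 in Tim4KO cells (SE 0.17, 95% interval -0.67 to 0.07, edgeR adjusted p = 0.268). The WT call was lost without WT naive 3 (-0.39, edgeR adjusted p = 0.123), WT ID8 1 (-0.49, 0.0648) or WT ID8 2 (-0.49, 0.0886). The difference between the genotypes in this response did not pass the test (interaction 0.31, 95% interval -0.22 to 0.83, edgeR adjusted p = 0.752).

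Ifnar1, a chain of the type I interferon receptor, lay at 86.5, 93.0 and 105 CPM in WT naive libraries, against 94.0, 131 and 74.1 CPM in WT ID8 libraries, so that WT ID8 3 was the lowest and WT ID8 2 the highest of these 6. Tim4KO libraries had 109, 132 and 111 CPM naive and 116, 103 and 99.1 CPM after challenge. The log2 fold changes were 0.07 (95% interval -0.30 to 0.44, edgeR adjusted p = 0.774) and -0.15 (-0.52 to 0.22, edgeR adjusted p = 0.602). Tnfrsf1b lay at 131, 150.3 and 165 CPM in WT naive libraries, against 115, 138 and 148 CPM in WT ID8 libraries. Its Tim4KO values were 165, 193 and 149 CPM naive and 146, 145 and 139.8 CPM after challenge. The WT groups of Tnfrsf1b overlapped and the Tim4KO groups did not. Its log2 fold changes were -0.16 (-0.45 to 0.13, edgeR adjusted p = 0.377) and -0.23 (-0.52 to 0.06, edgeR adjusted p = 0.274). Tnfrsf1b was called lower in WT cells with upper-quartile factors (-0.40) and with a mean count of at least 50 (-0.33), and in Tim4KO cells with the latter (-0.34).

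Most of these receptors act in pairs, and ratios of CPM per kb within a library do not depend on the library's scaling. The ratio of Ifngr1 to Ifngr2, the signalling chain of the same receptor, was 3.40, 2.89 and 3.35 in WT naive and 1.80, 1.25 and 2.46 in WT ID8 libraries. In Tim4KO cells it was 2.69, 3.69 and 4.15 naive and 2.35, 2.02 and 2.29 after challenge. This ratio was lower in all 6 ID8 than in all 6 naive libraries. Ifngr2 itself did not pass the test, at 0.22 in WT (edgeR adjusted p = 0.383) and -0.04 in Tim4KO cells (edgeR adjusted p = 0.906).

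The ratio of Csf2ra to Csf2rb was 4.20 ± 0.691 in Tim4KO naive and 7.38 ± 0.798 in Tim4KO ID8 libraries (SD, n = 3), with no overlap. In WT cells it was 4.17 ± 1.02 naive and 5.50 ± 0.831 after challenge, and the libraries overlapped. The ratio of Tnfrsf1b to Tnfrsf1a, the widely expressed Tnf receptor with a death domain, was 0.637 ± 0.0402 in WT naive and 0.519 ± 0.0354 in WT ID8 libraries without overlap, and overlapped in Tim4KO cells (0.746 ± 0.201 and 0.556 ± 0.0302). Ifnar1 to Ifnar2 was 0.644 ± 0.00215 in WT naive and 0.899 ± 0.247 in WT ID8 libraries without overlap, and overlapped in Tim4KO cells. The WT gap was narrow, from 0.646 in WT naive 2 to 0.671 in WT ID8 3. How often the ratio of any 2 genes separates in this way was not counted. Of single tested genes 23.3% were all higher and 21% all lower in WT cells, and 23.7% and 18.1% in Tim4KO cells. The ratios of Il6ra to Il6st (gp130), of Il10ra to Il10rb and of Csf2rb to Csf2rb2 overlapped between naive and ID8 libraries in both genotypes. Il10ra exceeded Il10rb 11.6- to 20.8-fold per kb in every library, the widest imbalance among the 7 pairs.

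**Figure D3:**
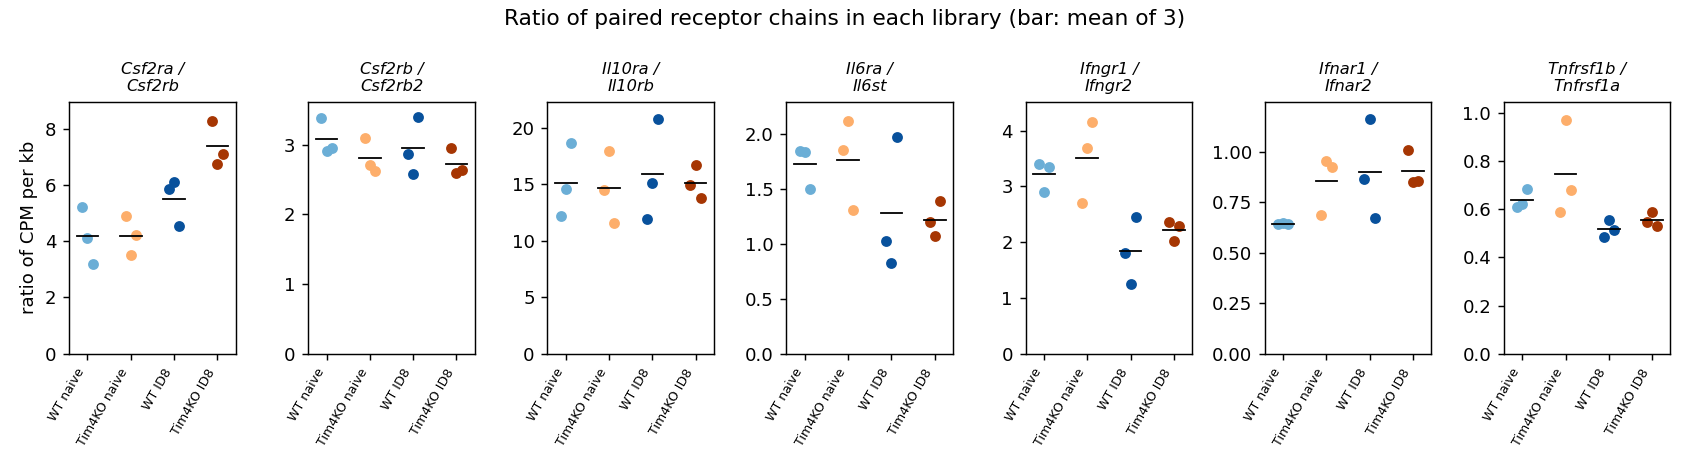
Ratio of CPM per kb (linear axis from 0) between the chains named above each panel, with each of the 3 libraries of a group as a point and their mean as a bar. Ifngr1 to Ifngr2 is 2.69 to 4.15 in naive and 1.25 to 2.46 in ID8 libraries, and Csf2ra to Csf2rb is highest in Tim4KO ID8.

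The genotype comparison asked whether loss of Tim4 went with other receptor levels, within naive and within challenged cells. None of the 10 receptors was called by edgeR in either condition, at a background of 0.0439% of tested genes called in naive cells (0.0251% higher, 0.0188% lower) and 0.0565% in ID8 cells (0.00627% higher, 0.0502% lower). Without WT ID8 3, 29 and 997 genes were called in place of 7 and 9, and still 0 of the receptors. At an unadjusted p under 0.05 the count was 1 receptor in naive cells (Il6ra) and 2 in ID8 cells (Csf2ra and Il6ra), and with DESeq2 it was 0 by adjusted p in both. The log2 differences were positive for 9 of 10 receptors in naive and 8 of 10 in ID8 cells, where 7888 and 8217 of the 15943 tested genes were positive. Their median was 0.16 in both conditions, beside -0.0042 and 0.01 over all tested genes. In ID8 cells most markers of other cells were positive as well: 11 of 11 tested markers of small peritoneal macrophages, monocytes and dendritic cells (median 0.49), 6 of 6 of eosinophils and mast cells (0.66), 4 of 4 of T and NK cells (0.51), 5 of 5 of epithelial or tumour cells (0.48) and 5 of 7 of B cells (0.42), against 2 of 5 of neutrophils (-0.17). In naive cells these were 7 of 11, 5 of 6, 1 of 4, 2 of 5, 0 of 7 and 4 of 5. None of these markers was called for genotype, and their part in the receptor values was not tested. The comparisons share libraries with the challenge comparisons, so the values are not independent of those above.

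Il6ra showed the largest difference. Its 3 Tim4KO libraries lay above the 3 WT libraries both in naive cells (149 to 216 against 114 to 133 CPM) and in ID8 cells (100.2 to 125 against 75.3 to 99.4 CPM). The log2 difference was 0.47 in naive (95% interval 0.14 to 0.81, edgeR adjusted p = 0.662) and 0.41 in ID8 cells (0.08 to 0.75, edgeR adjusted p = 0.328), and neither passed the threshold. Besides Il6ra, all Tim4KO libraries were higher for Ifnar1 in naive cells (0.31, edgeR adjusted p = 0.811), making 2 of 10 where 7.34% of tested genes had this order. In ID8 cells all were higher for Csf1r (0.19, edgeR adjusted p = 0.582) and Csf2ra (0.27, edgeR adjusted p = 0.387), making 3 of 10 with Il6ra, where 7.06% of tested genes had this order. For 0 of 10 receptors were all Tim4KO libraries lower in either condition, an order that 6.84% of tested genes had in naive and 8.56% in ID8 cells.

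The interaction, the Tim4KO response to challenge minus the WT response, was called for 0 of 10 receptors and for 0% of the 15943 genes by edgeR. At an unadjusted p under 0.05 there were 0 receptors and 1186 genes, and DESeq2 called 0 receptors and 11 genes. Without WT ID8 3, edgeR called 0 receptors and 368 genes. The receptor values ran from -0.27 for Csf2rb (95% interval -0.84 to 0.29) to 0.31 for Il10ra (-0.22 to 0.83). For the receptors called in both genotypes the intervals were -0.24 to 0.49 for Csf2ra, -0.41 to 0.54 for Csf3r, -0.38 to 0.41 for Ifngr1 and -0.53 to 0.41 for Il6ra. These intervals bound the difference between the genotypes and do not show that the responses were equal.

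The genes around the receptors were read from lists of general knowledge and are described by the counts of genes called in the same fit and by the list's median log2 fold change, beside medians over all tested genes of -0.04 in WT and -0.05 in Tim4KO cells. The counts for challenge stand beside 19.5% of all tested genes called higher and 12.3% lower in WT cells. In Tim4KO cells these shares were 11.5% and 5.06%. By edgeR 0 genes of the 8 lists were called for genotype or interaction. For genotype in ID8 cells the count was 11 without WT ID8 3, 5 with no filter on low counts, 3 with DESeq2 and 4 with the background reads as a covariate. For the interaction it was 3 without WT ID8 3 and 2 with no filter. Over the 8 lists 21 genes were called for challenge in Tim4KO cells, and it dropped to 8 when Tim4KO naive 2 or Tim4KO ID8 2 was left out, to 11 for Tim4KO ID8 1 and to 13 for Tim4KO ID8 3, while leaving out WT ID8 3 raised it to 32. Of the 12 ligands, 3 passed the filter. Il6, the ligand of Il6ra, lay at 1.84, 4.34 and 4.40 CPM in WT naive libraries, against 27.9, 34.1 and 17.6 CPM in WT ID8 libraries. In Tim4KO cells it lay at 3.44, 1.46 and 2.03 CPM naive and 8.38, 8.58 and 11.5 CPM after challenge. It rose in both, by 2.87 (edgeR adjusted p = 6.32e-05) and 2.01 (edgeR adjusted p = 0.002) on the log2 scale, while its receptor chain Il6ra fell. Tnf rose in WT cells (2.16, edgeR adjusted p = 0.00556) from a level of 0.955 ± 0.31 to 4.26 ± 1.85 CPM, and in Tim4KO cells its value was 0.74 (edgeR adjusted p = 0.365). Csf1 did not pass the test (-0.04 and -0.45, edgeR adjusted p = 0.91 and 0.189). The ligands that did not pass the filter were scarce in every library, with 0 to 4 reads of Csf2, 0 to 13 of Csf3, 0 to 2 of Ifng, 0 to 1 of Ifnb1 and 1 to 12 of Il10.

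Of 6 partner chains tested, 0 rose and 2 fell in WT cells, and 0 were called in Tim4KO cells, with median log2 fold changes of -0.20 and -0.18. Il10rb fell from 6.81 ± 0.1 to 4.38 ± 0.797 CPM (-0.65, edgeR adjusted p = 0.0235) and Ifnar2 from 82.6 ± 8.38 to 62.0 ± 1.14 CPM (-0.41, edgeR adjusted p = 0.0211) in WT cells. Both calls were fragile. That of Il10rb was lost without WT naive 1, 2 or 3 or WT ID8 2 or 3 (edgeR adjusted p up to 0.0905). That of Ifnar2 was lost without WT naive 2 or 3, any WT ID8 or any Tim4KO ID8 library (up to 0.139). Both were also lost with no filter on low counts (0.216 and 0.235) and with the background reads as a covariate (0.211 and 0.0887). Among 28 other cytokine receptors tested, 2 rose and 6 fell in WT cells, and 1 rose and 5 fell in Tim4KO cells, with medians of -0.27 and -0.22. Il2rg, the common gamma chain, rose in both (1.27, edgeR adjusted p = 1.37e-05, and 1.005, edgeR adjusted p = 0.000182), and Il1r1, the signalling receptor for Il1, fell in both (-3.79, edgeR adjusted p = 4.07e-06, and -2.30, edgeR adjusted p = 0.000242). Il1r1 was low throughout, at 5.02 ± 0.254 CPM in WT naive libraries, against 0.351 ± 0.0119 CPM in WT ID8 libraries. Crlf2, the receptor chain for thymic stromal lymphopoietin, fell in WT cells (-0.92, edgeR adjusted p = 0.000481). Il17ra fell in Tim4KO cells (-0.59, edgeR adjusted p = 0.0059), a call lost without Tim4KO ID8 2 (0.0545). The other called genes of this list were chosen after their values were seen. Il21r rose in WT cells (1.26, edgeR adjusted p = 0.00731). Il17ra (-0.40), Lifr (-0.69), Kit (-2.15) and Flt3 (-2.71) fell in WT cells, and Lifr (-0.95), Crlf2 (-0.61) and Il15ra (-0.60) in Tim4KO cells.

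Each of these 7 falls lost its call without at least 1 of several libraries. In WT cells the Il17ra call was lost without WT naive 2 or 3, WT ID8 1 (-0.23), Tim4KO naive 2 or 3 or any Tim4KO ID8 library (edgeR adjusted p up to 0.208), and that of Lifr without WT naive 2 or 3 or WT ID8 2 or 3 (up to 0.133). The call of Kit, at 0.137 to 1.29 CPM in WT ID8 libraries, was lost without WT naive 1 or WT ID8 3 (up to 0.128). The Flt3 call, with overlapping WT libraries, was kept without WT naive 2, WT ID8 1 (-4.16) or Tim4KO ID8 1 and lost without any other library (up to 0.155). With the replicate number as a block the calls of Lifr (0.0515), Kit (0.0578) and Flt3 (0.0793) were lost too. The background reads as a covariate also ended the WT calls of Kit (-0.37, edgeR adjusted p = 0.751), Flt3 (-0.63, 0.651) and Lifr (-0.77, 0.0733). In Tim4KO cells the Lifr call was lost without Tim4KO naive 2 (-0.59) or Tim4KO ID8 2 (up to 0.0546), and that of Crlf2 without Tim4KO naive 1 or Tim4KO ID8 1 or 2 (up to 0.113). The Il15ra call was lost without any WT naive or Tim4KO ID8 library or Tim4KO naive 1 (-0.35) or 2 (up to 0.232).

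**Figure D4:**
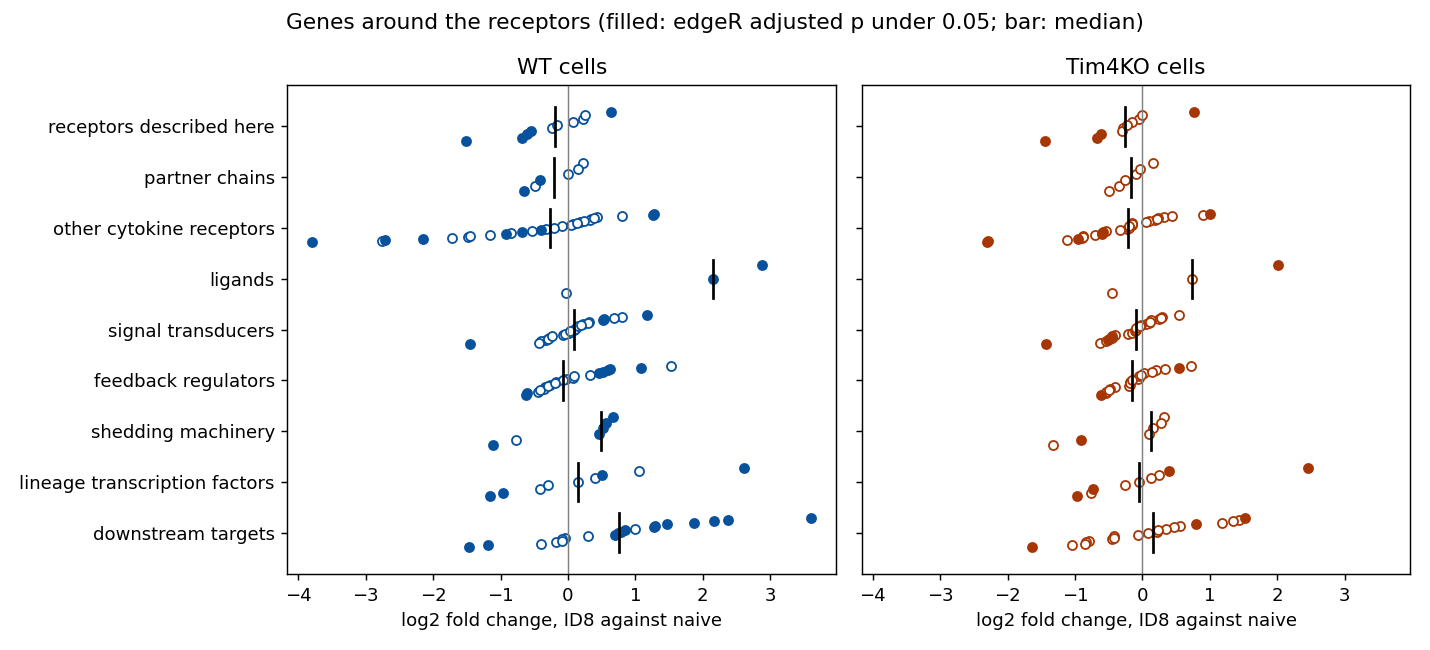
Log2 fold change, ID8 against naive, of each tested gene of the 10 receptors and of the 8 lists around them, in WT (left) and Tim4KO cells (right), with filled points at an edgeR adjusted p under 0.05 and a bar at the median of each list. In WT cells 11 of 20 downstream targets and 4 of 6 shedding genes are filled above 0, where 19.5% of all tested genes were called higher. In Tim4KO cells 2 of 20 and 0 of 6 are, where 11.5% of all tested genes were called higher.

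Of 24 signal transducers, 2 rose and 1 fell in WT cells, with a median of 0.09. Tradd, an adaptor of Tnfrsf1a, rose (0.54, edgeR adjusted p = 0.00921). Its call was lost with upper-quartile factors and with the background reads as a covariate (edgeR adjusted p = 0.0925 and 0.0929). Stat4 fell in WT (-1.45, edgeR adjusted p = 0.000986) and Tim4KO cells (-1.43, edgeR adjusted p = 0.00217). In Tim4KO cells 0 rose and 4 fell, with a median of -0.09. They were Stat4, Birc2 (-0.50, edgeR adjusted p = 0.0227), Stat5b, a Stat used by the GM-CSF receptor (-0.49, edgeR adjusted p = 0.0411), and Jak2 (-0.44), which was chosen after its value was seen. The Jak2 call was lost without any one of the WT naive or Tim4KO libraries or WT ID8 1 (edgeR adjusted p up to 0.254). The calls of Birc2 and Stat5b were lost without any one of the 6 Tim4KO libraries, and that of Stat5b also without WT naive 2 or 3 or WT ID8 2, with edgeR adjusted p up to 0.154 and 0.231.

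Of 21 feedback regulators, 5 rose and 2 fell in WT cells, and 1 rose and 1 fell in Tim4KO cells, with medians of -0.08 and -0.16. The phosphatases Ptpn11 (0.63, edgeR adjusted p = 0.000878), Ptpn1 (0.52, edgeR adjusted p = 0.00465) and Ptpn2 (0.47, edgeR adjusted p = 0.0132) rose in WT cells. The Ptpn2 call was lost without WT naive 1 (edgeR adjusted p = 0.0566) and with upper-quartile factors (0.13). Chosen after their values were seen, Usp18 (1.09) and Dok2 (0.59) also rose and Socs5 (-0.62) and Socs7 (-0.60) fell in WT cells. The calls were lost for Usp18 without any WT naive library or WT ID8 2 (edgeR adjusted p up to 0.106), for Dok2 without WT naive 3 (0.0727), and for Socs7 without WT naive 2 or 3 or WT ID8 2 (up to 0.105). Those of Usp18 and Dok2 were also lost with upper-quartile factors, and those of Usp18 and Socs7 with the background reads as a covariate (0.0764 and 0.0737). Socs5 was called only with all libraries or without WT ID8 1 or 2, at -0.32 without WT ID8 3 (0.167). It was not called with the replicate block (0.0599) or with the background reads as a covariate (0.416). In Tim4KO cells Pias1, an inhibitor of Stat factors, fell (-0.62, edgeR adjusted p = 0.00688) and the adaptor Dok2 rose (0.54, edgeR adjusted p = 0.0403). The Pias1 call was lost without Tim4KO naive 2 or Tim4KO ID8 2 (edgeR adjusted p up to 0.0672), and that of Dok2 without WT naive 2, Tim4KO naive 2 or any Tim4KO ID8 library (up to 0.184). The Tim4KO call of Dok2 was also lost with RLE (0.0642) or upper-quartile factors (0.119) and with a mean count of at least 50 (0.0798).

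Of 6 genes of the shedding machinery, which releases receptors such as Il6ra, Csf1r and Tnfrsf1b from the surface, 4 rose and 1 fell in WT cells, and 0 rose and 1 fell in Tim4KO cells, with medians of 0.49 and 0.13. Adam17, the main sheddase of the Tnf family, lay at 93.7, 98.8 and 117 CPM in WT naive libraries, against 146, 209 and 134 CPM in WT ID8 libraries, without overlap. It rose by 0.66 on the log2 scale in WT cells (edgeR adjusted p = 0.0053), and its value was 0.32 in Tim4KO cells (edgeR adjusted p = 0.184). Adam10 rose in WT cells (0.56, edgeR adjusted p = 0.00988). This call was lost with upper-quartile factors, with the background reads as a covariate (0.142) and without WT naive 1 (edgeR adjusted p = 0.0506). Rhbdf1, a cofactor of Adam17, fell in both (-1.11, edgeR adjusted p = 0.0086, and -0.91, edgeR adjusted p = 0.0337). Its WT call was lost without WT naive 3 (0.0694) and its Tim4KO call without any one of the 6 Tim4KO libraries (up to 0.135). With the background reads as a covariate both calls were lost (0.134 and 0.0533). Rhbdf2 and Frmd8, chosen after their values were seen, made up the 4 that rose in WT cells (0.52 and 0.47), although their WT libraries overlapped. These calls were lost with upper-quartile factors and without WT naive 1 or 2 or WT ID8 2, and that of Frmd8 also without WT ID8 3 and with the replicate block (edgeR adjusted p up to 0.102 and 0.125 with libraries left out). With the background reads as a covariate the Frmd8 value was 0.19 and not called (0.526). The interaction of Adam17 was -0.34 (edgeR adjusted p = 0.714) and did not pass the test.

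Of 9 tested lineage transcription factors, 2 rose (Spi1 and Cebpe) and 2 fell (Cebpa and Runx1) in both genotypes, with medians of 0.15 in WT and -0.05 in Tim4KO cells. Spi1, which encodes PU.1, lay at 234, 251 and 233 CPM in WT naive libraries, against 336, 338 and 343 CPM in WT ID8 libraries and rose by 0.50 on the log2 scale (edgeR adjusted p = 0.00449), a call lost with upper-quartile factors. Cebpa, which encodes a C/EBP factor, fell from 99.96 ± 15.5 to 44.7 ± 12.2 CPM in WT cells (-1.16, edgeR adjusted p = 0.000633). In Tim4KO cells it fell from 108 ± 21.3 to 64.8 ± 5.01 CPM (-0.74, edgeR adjusted p = 0.0181), a call lost without Tim4KO naive 2, Tim4KO ID8 1 or Tim4KO ID8 2 (up to 0.113). Runx1 fell in both (-0.97 in each, edgeR adjusted p = 0.000672 and 0.00127). Cebpe, a C/EBP factor of granulocyte precursors, had 0.325, 0.735 and 0.210 CPM in WT naive libraries, against 1.04, 1.37 and 5.43 CPM in WT ID8 libraries, the highest in WT ID8 3. Its WT value was 2.62 (edgeR adjusted p = 0.00749), which dropped to 1.49 and was no longer called (0.0959) when WT ID8 3 was left out. The WT call of Cebpe was also lost with the background reads as a covariate (1.19, edgeR adjusted p = 0.226). It rose in Tim4KO cells from 0.283 ± 0.0483 to 1.64 ± 0.264 CPM (2.46, edgeR adjusted p = 0.0262), a call lost without any Tim4KO naive library, Tim4KO ID8 1 or Tim4KO ID8 2 (up to 0.0845). The Tim4KO call was also lost with limma voom (2.29, voom adjusted p = 0.146). Cebpe had 3, 2 and 6 reads in the Tim4KO naive libraries, near the count of 3 taken as the floor, so the size of this rise is uncertain.

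Of 20 downstream targets of these receptors, 11 rose and 2 fell in WT cells, with a median of 0.76, and 2 rose and 1 fell in Tim4KO cells, with a median of 0.15. In WT cells Bcl2l1, a survival gene, lay at 30.1, 23.2 and 27.3 CPM naive and at 61.2, 88.1 and 47.9 CPM after challenge and rose by 1.29 (edgeR adjusted p = 0.000162). Pim1, a kinase gene induced by Stat5, rose by 0.74 (edgeR adjusted p = 0.000968), and the interferon-induced chemokine Cxcl10 by 3.61 (edgeR adjusted p = 0.0033) from 0.327 ± 0.0926 to 4.01 ± 2.75 CPM. Cxcl10 had 4 reads in each WT naive library, near the count of 3 taken as the floor, so the size of its rise is uncertain. In Tim4KO cells Spry2, an inhibitor of receptor tyrosine kinase signalling, fell (-1.64, edgeR adjusted p = 0.00479), and Gbp2, an interferon-induced GTPase, and Ccnd1 (cyclin D1) rose (1.52, edgeR adjusted p = 0.00912, and 0.79, edgeR adjusted p = 0.0236). The second gene to fall in WT cells besides Spry2 (-1.18) was Ciita (-1.47), both chosen after their values were seen. Their WT calls were lost for Spry2 without WT naive 1 or WT ID8 3 (edgeR adjusted p up to 0.0842), and for Ciita without WT naive 1 (-0.94) or 3, WT ID8 2 or 3, Tim4KO naive 2 or any Tim4KO ID8 library (up to 0.209). With the background reads as a covariate both calls were lost too (0.21 and 0.416). The Gbp2 call was lost without Tim4KO naive 2 (0.055), and the Ccnd1 call without Tim4KO naive 2 or 3 or Tim4KO ID8 3 (up to 0.106). Upper-quartile factors also ended the Ccnd1 call (0.0548). Whether the WT and Tim4KO counts of targets differ was not tested as such, and the interaction was called for 0 of the 20.

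The genes most like each called receptor over the 12 libraries were taken by Pearson's r of log2(CPM + 1) among 9688 genes whose mean count reached 50. These correlations describe libraries that share depth and the 2-sided split into naive and ID8, and have no p. For Csf2ra they were Chst12, Sdc3 and Flna, each with an r of 0.98. For Csf3r they were Cxcl12 (0.99), Trf (0.99) and Igf1 (0.98). Cxcl12 lay at 76.5 to 125 CPM in naive and 7.71 to 16.6 CPM in ID8 libraries, a wider drop than that of Csf3r. Igf1 lay at 234 to 343 CPM in naive and 40.8 to 71.9 CPM in ID8 libraries. For Ifngr1 they were Bach2, Pcmtd2 and Cask (0.98 each), for Il6ra Mbp (0.97), Herc4 (0.96) and Zfp36l2 (0.96), and for Il10ra Bphl (0.96), Oaz2 (0.94) and Mettl7a1 (0.94).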

How the data were processed

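The deposited table held raw read counts per Ensembl gene, 1 column for each of the 12 libraries. They were taken as raw because every value is whole and the library totals are unequal. The submitters' processing notes name FastQC, STAR 2.5 and the builds mm10 and GRCm39, with no role or order, and the labels' protocols give the RNeasy micro kit and the SMART-Seq mRNA LP kit. The counting program, strand setting, read length and treatment of multi-mapping reads are not given in the sources used here. Symbols and exonic lengths came from GENCODE vM21, which named 52029 of 57010 identifiers. Upstream sequences came from RefSeq's table for GRCm38.p6.

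Tests on the counts used edgeR 4.0.16 (R 4.3.3): filterByExpr (15943 genes kept), TMM factors (0.896 to 1.087), a robust quasi-likelihood fit of 4 group means over all 12 libraries with 8 residual degrees of freedom, two-sided F tests, and Benjamini-Hochberg adjustment over all tested genes at 0.05. A count of 3, taken as the floor, corresponded to 0.129 to 0.408 CPM, which covers counting error only. The test was checked on counts simulated for the WT challenge comparison only, with genes drawn independently and no library set apart. It recovered 78% of 100 genes changed by 1 log2 unit and 97% of 100 changed by 2, and 6 of 181 calls were false. Smaller changes, genotype and interaction were not simulated, so this check does not bear on receptors that were not called. The 5 comparisons share groups. The receptors and all gene lists were chosen with earlier results of these data known. Named genes were the 10 receptors, Timd4, up to 3 called genes per list and comparison with the smallest p, direct partners or ligands, and the 3 genes most like each called receptor; others are marked as chosen after their values were seen. Values of 1 listed gene are not reported here. Lists of markers for other cells were summed per library, and calls of their genes come from the same fit; no list was tested as a set.

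The labels number the libraries 1 to 3 in each group without saying that a number marks a pairing. Deviations from the group means of same-numbered libraries correlated at 0.131, 0.101 and 0.31 between WT naive and WT ID8. In each of the other comparisons at least 1 number was under 0.1. These weak correlations do not establish a pairing. The main fit was unpaired in every comparison, and the number entered only as a block in an alternative fit. Alternatives were other scalings (RLE, upper quartile), other filters, DESeq2 1.42.0, limma 3.58.1 voom, a fit of only the 2 groups compared, the replicate number as a block, background reads as a covariate, Csf2rb and Csf2rb2 summed, and each library left out.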

Additional observations from a re-analysis of the deposited data

Results flagged for a closer look

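Among the genes around the receptors, 3 had library values that moved in opposite directions in the 2 genotypes or in the 2 conditions, and none of their interactions passed edgeR's test. They were selected by this order, and the share of all tested genes with such opposite orders was not counted. After challenge 23.3% of tested genes were all higher in WT and 18.1% all lower in Tim4KO cells. For genotype 7.34% were all higher and 6.84% all lower in naive cells, and 7.06% and 8.56% in ID8 cells. Il15ra, the alpha chain of the Il15 receptor, had 13.5, 16.6 and 15.9 CPM in naive and 18.3, 22.3 and 17.7 CPM in ID8 libraries of WT cells, against 33.8, 25.6 and 19.5 CPM in naive and 16.4, 16.1 and 19.4 CPM in ID8 libraries of Tim4KO cells. It was higher after challenge in all WT libraries and lower in all Tim4KO libraries, with an interaction of -0.93 (SE 0.27, edgeR adjusted p = 0.668).

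Il1r1 had 5.31, 4.94 and 4.82 CPM in WT naive against 2.79, 4.26 and 4.56 CPM in Tim4KO naive libraries, and 0.345, 0.344 and 0.365 CPM in WT ID8 against 0.692, 0.831 and 0.807 CPM in Tim4KO ID8 libraries. The Tim4KO libraries were all lower in naive and all higher in ID8 cells, with an interaction of 1.49 (SE 0.47, edgeR adjusted p = 0.668), at 3 to 14 reads in each ID8 library. Ptpn11, the phosphatase Shp2, had 26.0, 31.9 and 31.7 CPM in WT naive against 34.0, 33.2 and 33.3 CPM in Tim4KO naive libraries, and 44.8, 48.5 and 45.6 CPM in WT ID8 against 42.3, 41.7 and 42.8 CPM in Tim4KO ID8 libraries. Its Tim4KO libraries were all higher in naive and all lower in ID8 cells, with an interaction of -0.29 (SE 0.16, edgeR adjusted p = 0.679). The causes were not tested.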

How the results depend on the processing

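Csf2ra and Csf3r were called in both genotypes, and Ifngr1 in WT cells, under every alternative. With each library left out in turn, the receptors called ranged from 3 to 5 in WT and from 2 to 4 in Tim4KO cells and were 0 for genotype and interaction. All genes called ranged from 3362 to 7230 and from 1222 to 3595 for challenge (WT and Tim4KO), from 1 to 29 and from 1 to 997 for genotype (naive and ID8), and from 0 to 368 for the interaction. List genes called ranged from 8 to 32 for challenge in Tim4KO cells, from 0 to 11 for genotype in ID8 cells and from 0 to 3 for the interaction.

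Genes called for genotype in naive cells went from 7 to 59 with no filter, 52 with DESeq2, 4 with voom, 2 with only the 2 groups compared and 3 with the replicate block. In ID8 cells they went from 9 to 264 with no filter, 265 with DESeq2, 197 with the background covariate and 14 with the replicate block. Challenge in WT cells went from 5067 to 3102 with only the 2 groups compared. The interaction went from 0 to 73 with no filter, 11 with DESeq2 and 2 with the covariate. List genes went for genotype in ID8 cells from 0 to 5 with no filter, 3 with DESeq2 and 4 with the covariate, for challenge in Tim4KO cells from 21 to 39 with only the 2 groups compared, and for the interaction from 0 to 2 with no filter. The causes were not tested. The replicate block, for a pairing by number, changed no call among the receptors.

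Every change of sign was of a value that had not passed the test. For genotype these were Il10ra in naive cells with the replicate block (0.013), and in ID8 cells Csf2rb with the covariate (0.016) and Csf2rb2 with upper-quartile factors (0.024) and the covariate (0.040). For challenge in WT cells they were Csf2rb (-0.012 with upper-quartile factors, -0.12 with the covariate), Ifnar1 (-0.18 with upper-quartile factors, -0.11 with a mean count of at least 50, -0.038 with only the 2 groups compared), Ifngr2 (-0.031 with upper-quartile factors) and Csf1 (0.070 with no filter, 0.30 with the covariate). For challenge in Tim4KO cells they were Csf2rb2 (0.033 with no filter) and Ifngr2 (0.0078 with no filter, 0.0022 with the covariate). For the interaction they were Csf1r (0.068 with upper-quartile factors, 0.0062 with a mean count of at least 50), Il6ra (0.067 and 0.0035 likewise, 0.11 with the covariate), Ifngr1 (-0.045 with no filter) and Tnfrsf1b (0.052 with upper-quartile factors, 0.057 with the covariate).

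With single libraries left out, signs also changed for these ranges. Genotype in naive cells ran from -0.087 to 0.26 for Csf2rb, -0.014 to 0.40 for Csf2rb2, -0.016 to 0.23 for Csf3r and -0.15 to 0.19 for Il10ra. In ID8 cells it ran from -0.34 to 0.063 for Csf2rb, -0.18 to 0.059 for Csf2rb2, -0.089 to 0.33 for Ifnar1 and -0.041 to 0.19 for Tnfrsf1b. Challenge in WT cells ran from -0.0064 to 0.41 for Csf2rb, -0.15 to 0.27 for Ifnar1, -0.23 to 0.013 for Tnfrsf1b, -0.076 to 0.43 for Ifngr2 and -0.21 to 0.19 for Csf1. In Tim4KO cells it ran from -0.081 to 0.021 for Csf2rb, -0.10 to 0.089 for Csf2rb2 and -0.13 to 0.072 for Ifngr2. The interaction ran from -0.22 to 0.051 for Csf1r, -0.070 to 0.19 for Csf3r, -0.20 to 0.11 for Il6ra, -0.11 to 0.10 for Ifngr1, -0.40 to 0.014 for Ifnar1 and -0.23 to 0.012 for Tnfrsf1b.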
